A study of Mus musculus with 7 samples.

Results

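Neurexins, neuroligins and LRRTMs (leucine-rich repeat transmembrane proteins) are adhesion proteins that meet across the synaptic cleft. Neurexins sit mainly on the presynaptic side, and neuroligins and LRRTMs are postsynaptic partners that bind them. The family sets where excitatory and inhibitory contacts form and how well they transmit, and in the hippocampus LRRTMs help to hold AMPA-type glutamate receptors at synapses. The members described here were chosen by name: the neurexin genes Nrxn2 and Nrxn3, the neuroligin genes Nlgn1, Nlgn2 and Nlgn3, and the LRRTM genes Lrrtm1, Lrrtm2, Lrrtm3 and Lrrtm4. They are 9 of the 27583 genes in the expression table, and all 9 reached a median of 1 FPKM or more, as did 12052 genes in all, called all genes kept below.

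The RNA came from hippocampus of male wild-type mice, given as C57BL/6 in the source labels and as C57BL6/J in the titles, in 7 libraries that carry no treatment, age or time in their labels. The series was designed to set hippocampus after spinal cord injury beside that of healthy controls, but the labels do not say which sample is which, so no such comparison was made and the libraries stand as replicates 1 to 7 of 1 group. Nothing says that each came from its own animal, so a p-value across libraries holds for these libraries only. Tests of level use differences between genes within a library, and tests of co-variation use the spread between libraries. That spread may be technical alone, and the part of injury in it was not tested. Expression is given as FPKM, reads per kilobase of gene per 1000000 reads, which allows levels of different genes to be set side by side within a library as far as the gene lengths are right.

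Before any result, 1 library has to be named as standing apart. Replicate 5 was highest for all 10 of 10 listed marker genes of striatal projection neurons, with a summed level of 1725 FPKM against 49.7 to 62.2 elsewhere. None of these markers was at 0 in any library. The 8 listed genes of hippocampal excitatory neurons were present in each library and summed to 1536 FPKM in replicate 5 and 1823 to 2329 elsewhere. The choroid plexus list summed to 25.6 to 1114 FPKM and the oligodendrocyte list to 740 to 1502 FPKM. Results are given with and without replicate 5 where they rest on it, and the part of other tissue in them was not tested. In bulk RNA, fewer cells of a type and less RNA per cell cannot be told apart.

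The members of a family resemble each other, and the coding stretches that they share set how far reads can be told apart. The longest identical runs between coding sequences (GENCODE M21, mm10) are shown for the closest pairs, 5′ to 3′ on the coding strand.
Nrxn2 and Nrxn3: agcaacaacttcatgggctgcct
Nlgn1 and Nlgn3: ggagagttcctcaactatgatat
Nlgn2 and Nlgn3: gtcatgacctattggaccaactt
Nlgn1 and Nlgn2: cccaaccgctttgaaga
Lrrtm3 and Lrrtm4: tggattccaacaagctcac
The runs are 23, 23, 23, 17 and 19 bases long, and the other LRRTM pairs share 11 to 15 bases. The neurexin run lies at chr19:6472390-6472412 in Nrxn2 and chr12:89193178-89193200 in Nrxn3, both on the plus strand. The Nlgn1 and Nlgn3 run lies at chr3:25436354-25436376 on the minus strand and at chrX:101318195-101318217 on the plus strand. That of Nlgn2 and Nlgn3 lies at chr11:69826756-69826778 (minus) and chrX:101318684-101318706 (plus). That of Nlgn1 and Nlgn2 lies at chr3:25434395-25434411 (minus) and chr11:69826014-69826030 (minus). That of Lrrtm3 and Lrrtm4 lies at chr10:64088515-64088533 (minus) and chr6:80022460-80022478 (plus). No coding run of more than 23 bases was identical between any pair within a family.

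The neurexin gene Nrxn2 was the more abundant of the neurexin pair in each library. Nrxn2 (chromosome 19, 6418731 to 6544169, plus strand, mm10) had 37.9, 38.7, 41.0, 41.1, 32.4, 35.7 and 38.4 FPKM in replicates 1 to 7. Its lowest library was replicate 5, and replicates 3 and 4 were highest. Nrxn3 (chromosome 12, 88722876 to 90334935, plus strand) had 17.4, 17.1, 15.4, 18.4, 20.3, 15.8 and 16.5 FPKM. Here replicate 5 was the highest library and replicate 3 the lowest. The ratio of Nrxn2 to Nrxn3 was 1.6 in replicate 5 and 2.17 to 2.67 in the others, and Nrxn2 made up 61.5% of the summed FPKM of the pair there against 68.5% to 72.8%. Each neurexin gene makes long alpha and short beta forms from separate promoters, and a single value per gene cannot separate them.

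Nlgn2, the neuroligin of inhibitory synapses, had the highest median of the members, level with Nrxn2, and Nlgn1, that of excitatory synapses, was among the lowest. Nlgn2 (chromosome 11, 69823122 to 69837784, minus strand) had 38.5, 40.1, 40.9, 43.6, 35.4, 36.3 and 38.5 FPKM. Replicate 4 was highest, and replicates 5 and 6 were lowest. Nlgn3, which is found at both kinds of synapse and in glia, lies on the X chromosome (101299168 to 101325963, plus strand) and had 20.3, 20.02, 18.7, 20.04, 16.4, 19.2 and 19.1 FPKM. Replicate 5 lay below the other 6 libraries, which stayed within 1.08-fold of each other. Nlgn1 (chromosome 3, 25426215 to 26332460, minus strand) had 5.48, 5.18, 4.86, 5.25, 5.38, 5.52 and 5.09 FPKM, and replicate 5 lay inside its range. The level of Nlgn2 was 6.57 to 8.42 times that of Nlgn1 and 1.89 to 2.18 times that of Nlgn3 across the libraries. Of the FPKM summed over these 3 genes, Nlgn2, Nlgn3 and Nlgn1 took 61.4%, 30.5% and 8.13% at the median. Another neuroligin gene, Nlgn4l, was not a member and is left out of the sum. Its median of 8.37 FPKM was above that of Nlgn1 at the deposited lengths. The length behind Nlgn4l was not checked, and with its own longest annotated transcript Nlgn1 had a median of 8.52. With the longest annotated transcript as length the shares were 70.1%, 15.3% and 14.6%. In reads they were 56.3%, 18.9% and 24.8%, with Nlgn1 above Nlgn3.

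**Figure D1:**
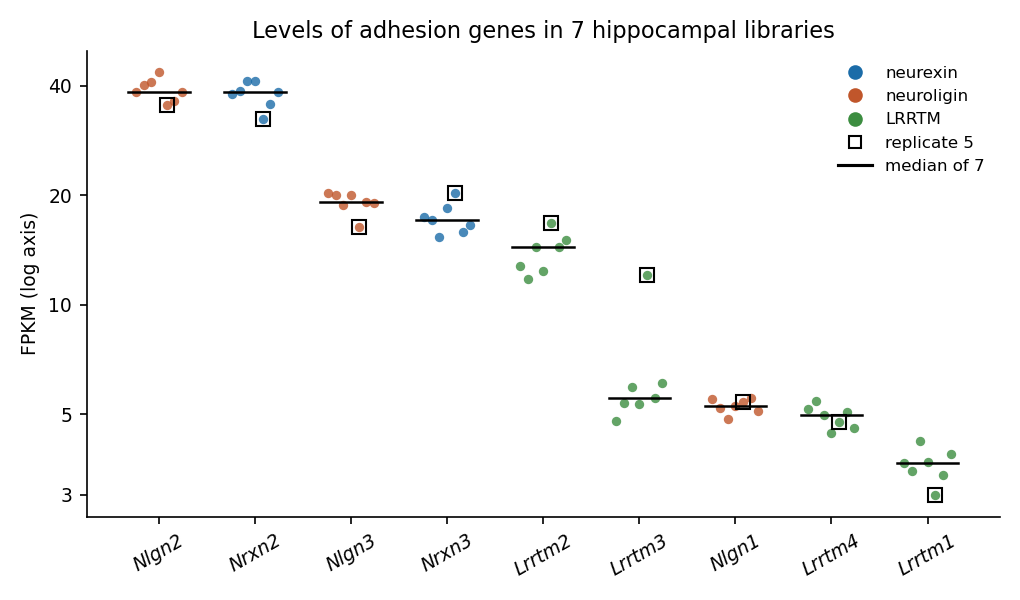
FPKM of each adhesion gene in the 7 hippocampal libraries on a log axis, ordered by median, with replicates 1 to 7 from left to right within a gene, replicate 5 boxed and the median as a line. Lrrtm3 at 12.1 FPKM in replicate 5 lies far above its other libraries, while Nlgn1 stays between 4.86 and 5.52.

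Among the LRRTM genes, Lrrtm2 had the highest FPKM and Lrrtm3 the widest range. Lrrtm2, which with Lrrtm1 takes part in AMPA receptor retention at hippocampal CA1 synapses, lies on chromosome 18 and had 12.8, 11.7, 14.4, 12.4, 16.7, 14.4 and 15.0 FPKM. Replicate 5 was highest, with replicates 2, 4 and 1 lowest. Lrrtm3 (chromosome 10, 63928472 to 64090277, minus strand) had 4.79, 5.38, 5.93, 5.33, 12.1, 5.52 and 6.09 FPKM. Replicate 5 was 2.22 times the median of the others, which lay within 1.27-fold of each other. Lrrtm4, a receptor for glypicans that is known from dentate granule cells (chromosome 6, 80018877 to 80810143, plus strand), had 5.17, 5.43, 4.96, 4.42, 4.75, 5.06 and 4.58 FPKM. Replicate 2 was highest and replicate 4 lowest, and replicate 5 lay between. Lrrtm1 (chromosome 6, 77242689 to 77257791, plus strand) had 3.67, 3.48, 4.23, 3.68, 2.99, 3.39 and 3.89 FPKM and was lowest in replicate 5. The ratio of Lrrtm3 to Lrrtm1 was 4.04 in replicate 5 and 1.30 to 1.63 elsewhere. The 4 LRRTM genes summed to 36.5 FPKM in replicate 5 and to 25.8 to 29.6 elsewhere, but this sum depends on the gene lengths described further on. In reads it was 10663 in replicate 5 and 10875 in replicate 3, and with the longest annotated transcript as length 70.5 and 75.01, so that replicate 3 was then highest.

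Lrrtm1 had the lowest FPKM in all 7 libraries, the 1 member of 9 that held the same rank throughout, and several neighbours in the order could not be separated. By median FPKM the order was Nlgn2 (38.5), Nrxn2 (38.4), Nlgn3 (19.2), Nrxn3 (17.1), Lrrtm2 (14.4), Lrrtm3 (5.52), Nlgn1 (5.25), Lrrtm4 (4.96) and Lrrtm1 (3.67). Within-library differences of log2(FPKM + 1) were tested for each of the 36 pairs with an exact two-sided sign-flip permutation test and Benjamini-Hochberg adjustment over the pairs. Of the 36 pairs 31 differed at 0.05, and 30 pairs kept the same direction in all 7 libraries. The smallest p that 7 libraries allow is 0.0156. Of the 8 neighbouring pairs 4 differed: Nrxn2 over Nlgn3 by a mean of 0.95 on this scale, Nrxn3 over Lrrtm2 by 0.30, Lrrtm2 over Lrrtm3 by 1.05 and Lrrtm4 over Lrrtm1 by 0.36, each in 7 of 7 libraries with an adjusted p of 0.0188 by exact permutation. Nlgn2 and Nrxn2 differed by 0.04 ± 0.05 (SD over 7 libraries), with Nlgn2 higher in 6 of 7 (exact permutation, adjusted p = 0.0527). Nlgn3 exceeded Nrxn3 in 6 of 7 libraries by 0.14 ± 0.20 (exact permutation, adjusted p = 0.129), with the reverse in replicate 5, and without that library the pair passed at 0.21. Lrrtm3 and Nlgn1 (0.20 ± 0.39, exact permutation, adjusted p = 0.141) and Nlgn1 and Lrrtm4 (0.08 ± 0.09, exact permutation, adjusted p = 0.0827) did not pass either. Without replicate 3 Nlgn2 and Nrxn2 passed at a difference of 0.05, and without replicate 1 Lrrtm3 and Nlgn1 passed at 0.26.

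The order rests on the gene lengths by which the authors divided, and these could be read back from the table. Values of a gene step by the worth of 1 read, and the steps gave whole reads for all 9 members to within the tolerance of 0.02 reads, and the depth estimated per library was 37324418 to 38448101 reads. The length behind each member followed from its step. It was 5673 bases for Lrrtm2, the same as the longest GENCODE transcript, and for Nrxn2 (6663 against 6667), Nlgn2 (5739 against 5568) and Lrrtm3 (3852 against 3896) it was within 10% of it. Nrxn3 was divided by 9887 bases against 7922 in that transcript. For the other 4 the lengths stood further apart: Lrrtm1 was divided by 29612 bases against 2958, Lrrtm4 by 11131 against 4435, Nlgn1 by 19149 against 11807, and Nlgn3 by 3883 against 8541. Among 11648 kept genes with a GENCODE length, 41.6% were within 10%, and 12 genes, Lrrtm1 included, had a ratio at least as large as the 10.01 of Lrrtm1.

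With the longest GENCODE transcript as length, Lrrtm1 moved from last place to rank 3. Its median then stood at 36.7 FPKM, next to Nlgn2 at 39.7 and Nrxn2 at 38.4, and Nrxn2 did not differ from it (mean difference 0.07 ± 0.08 on the log2 scale, SD over 7 libraries, exact permutation, adjusted p = 0.0993). Nlgn3 fell from rank 3 to rank 7 at 8.72, level with Nlgn1 at 8.52 (0.02 ± 0.11, exact permutation, adjusted p = 0.594). Nrxn3 stood at 21.3, Lrrtm2 at 14.4, Lrrtm4 at 12.5 and Lrrtm3, now last, at 5.46. Of the 36 pairs 31 again passed, 11 of them in the reverse direction, and of the 8 pairs next to each other in this order 4 passed. In reads alone, Lrrtm1 had 3336 to 4777 per library, more than Lrrtm2 at 2486 to 3580 and Lrrtm3 at 700 to 1753. The table does not say where in a gene its reads fell, so the reads counted over 29612 bases may lie in part outside the shorter transcript. In GENCODE the Lrrtm1 locus spans 15103 bases and its exons together cover 3033, so 29612 exceeds the whole annotated gene. For Nlgn1 and Lrrtm4 all exons together cover 13422 and 6147 bases, also less than the 19149 and 11131 behind the deposited FPKM. Lengths are the same in each library and do not touch comparisons of 1 gene between libraries.

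**Figure D2:**
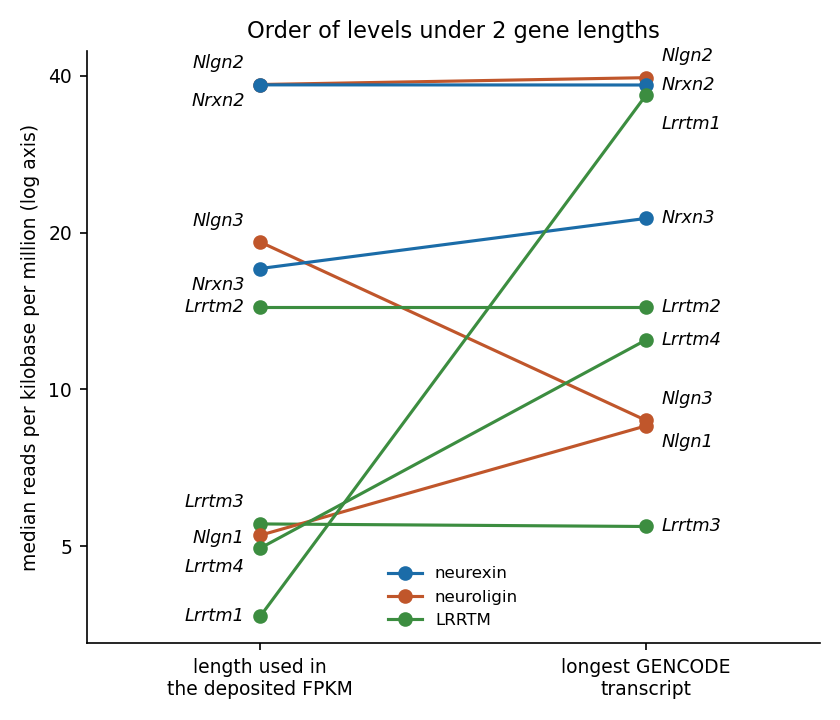
Median level of each gene over the 7 libraries, in FPKM on a log axis, with the length behind the deposited FPKM (left) and with the longest GENCODE transcript (right). Lrrtm1 moves from 3.67 to 36.7 and Nlgn3 from 19.2 to 8.72, while Lrrtm2 and Nrxn2 keep level and rank, and Lrrtm3 keeps its level (5.52 and 5.46) but drops to last place.

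Lrrtm3 varied most between libraries among the members and Nlgn1 least. The coefficient of variation (SD over mean of FPKM, n = 7) ran from 4.45% for Nlgn1 to 39.0% for Lrrtm3, with a median of 8.05% over the members and 9.44% over all genes kept. It was under 10% for 6 of 9 members, against 54.1% of all genes. Counting error alone would give 1.02% for Nrxn2, with the most reads, and 3.26% for Lrrtm3, with the fewest, so the observed spread was 2.75 times (Nlgn1) to 11.98 times (Lrrtm3) as large. Without replicate 5 these ratios ran from 1.71 for Nlgn3 to 5.85 for Nlgn2, and that of Lrrtm3 was 2.58. Among those genes the coefficient of Nlgn1 lay at percentile 6.63 and that of Lrrtm3 at percentile 97.8. Without replicate 5 the coefficient of Lrrtm3 was 8.42% and that of Nlgn3 3.23%, at percentiles 51.1 and 3.24 of all genes over the same 6 libraries. Lrrtm2 at 9.82% then varied most among the members.

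**Figure D3:**
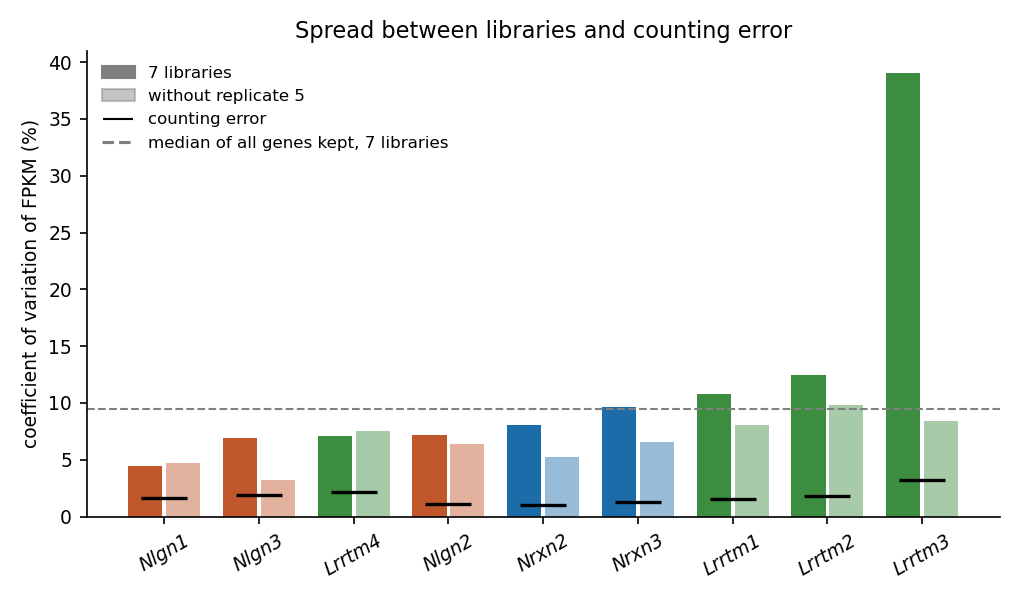
Coefficient of variation of FPKM for each adhesion gene over 7 libraries (dark bars) and without replicate 5 (light bars), with the counting error expected from its reads (black marks) and the median of all genes kept (dashed line, 9.44%). Lrrtm3 drops from 39.0% to 8.42% when replicate 5 is left out.

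Replicate 5 held an extreme value for 7 of 9 members, in both directions. Nrxn2, Nlgn2, Nlgn3 and Lrrtm1 were lowest there, 4 of 9 members against 26.0% of all genes, and Nrxn3, Lrrtm2 and Lrrtm3 were highest there, 3 of 9 against 21.1%. Relative to the median of the other libraries the value in replicate 5 was 0.842 for Nrxn2, 0.901 for Nlgn2, 0.836 for Nlgn3 and 0.812 for Lrrtm1, and 1.21 for Nrxn3, 1.23 for Lrrtm2 and 2.22 for Lrrtm3. Nlgn1 (1.03) and Lrrtm4 (0.948) stayed inside the range of the others. The same 4 were lowest and the same 3 highest there after rescaling to a common sum (against 32.9% and 15.5% of all genes), under upper-quartile scaling (23.2% and 24.3%), and with reads of mitochondrially encoded genes left out of the depth, an alternative chosen after seeing the data (23.3% and 24.1%). Whether 1 library lies apart from the rest was judged by Dixon's 95% critical value for the gap at the end of the range. By it 2 of 9 members had 1 library apart, Lrrtm3 and Nlgn3, against 9.72% of all genes. A gap with replicate 5 highest, as for Lrrtm3, was found in 4.35% of all genes, and one with replicate 5 lowest, as for Nlgn3, in 2.61%. Without the mitochondrial reads the same 2 had 1 library apart, against 9.7% of all genes. After rescaling (8.9% of all genes) and under upper-quartile scaling (9.55%) only Lrrtm3 had one.

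**Figure D4:**
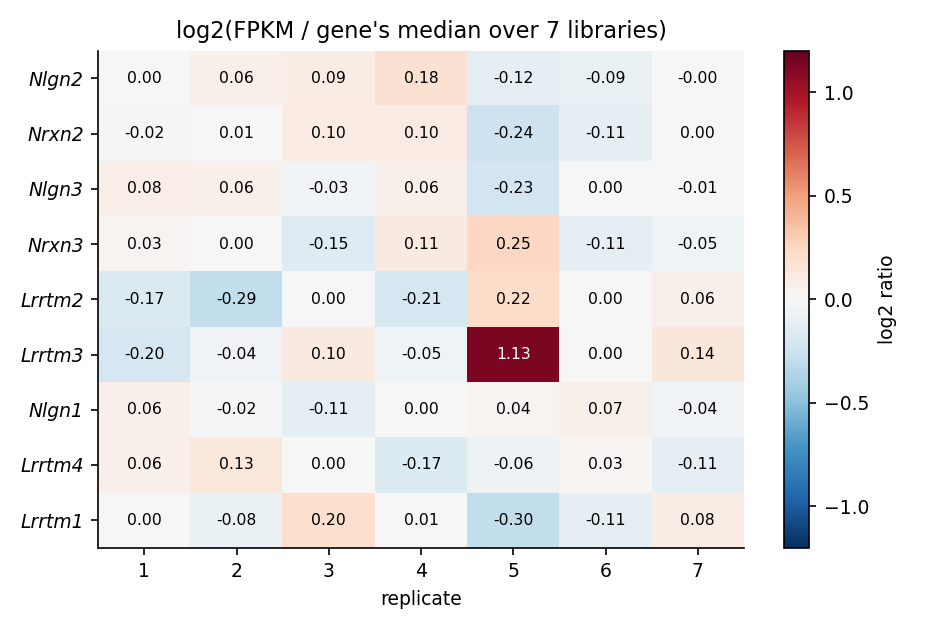
Level of each gene in each library as the log2 ratio of its FPKM to the gene's median over the 7 libraries, genes ordered by median. Replicate 5 holds the largest deviation, 1.13 for Lrrtm3, beside -0.30 for Lrrtm1 and -0.24 for Nrxn2.

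Co-variation of member pairs was tested without a share over pairs of all genes kept, so the counts cannot be called few or many. Of 36 pairs, 1 passed the exact two-sided permutation test of Pearson's r on log2(FPKM + 1) after Benjamini-Hochberg adjustment over the pairs, and 5 had an unadjusted p under 0.05. That pair was Nlgn3 and Lrrtm3, in opposite directions (r = -0.97, exact permutation p = 0.000992, adjusted p = 0.0357; rho = -0.96, exact permutation p = 0.00278, adjusted p = 0.05). Without replicate 5 it had r = -0.87 (exact permutation p = 0.0181, adjusted p = 0.317) and rho = -0.94. A single pair out of 36 cannot pass with 6 libraries. Without the 2 libraries farthest from the median of Nlgn3 the r of the pair was -0.85. It did not pass after rescaling to a common sum (exact permutation, adjusted p = 0.148) or under upper-quartile scaling (0.0732). Nrxn2 and Nlgn2, a pre- and a postsynaptic member at nearly the same level, had r = 0.92 (exact permutation p = 0.00357, adjusted p = 0.0643) and rho = 0.96 (exact permutation p = 0.00278, adjusted p = 0.05). This pair kept r = 0.93 without replicate 5 (exact permutation, adjusted p = 0.1) and 0.87 without the 2 libraries farthest from the median of Nrxn2. That was the smallest adjusted p of any of the 36 pairs without replicate 5, where 4 pairs had an unadjusted p under 0.05. Nlgn1 and Nlgn2, the excitatory and inhibitory neuroligins, had r = -0.53 (exact permutation p = 0.222, adjusted p = 0.420) and rho = -0.50 (exact permutation p = 0.267).

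Of the LRRTM genes, 3 lie inside alpha-catenin genes on the opposite strand. Alpha-catenins link cadherins to actin. Lrrtm2 lies in Ctnna1, Lrrtm3 in Ctnna3 and Lrrtm1 in Ctnna2, and the sources used here do not say whether reads were counted by strand. Ctnna1 had 13.98, 12.4, 14.7, 12.7, 17.8, 14.4 and 15.4 FPKM in replicates 1 to 7. At the deposited lengths this was nearly the level of Lrrtm2, and the ratio of Lrrtm2 to Ctnna1 stayed between 0.912 and 0.998. Ctnna1 was divided by 4611 bases against 3733 in its longest GENCODE transcript. With the longest transcripts as lengths the median of Ctnna1 was 17.8 and that of Lrrtm2 14.4. The pair had r = 0.97 (exact permutation p = 0.000198, the smallest these permutations can give, adjusted over the 3 such pairs 0.000595) and rho = 1 (exact permutation p = 0.000397, adjusted 0.00119). Without replicate 5 r was 0.95 (exact permutation p = 0.00139, adjusted 0.00417) and without the 2 libraries farthest from the median of Lrrtm2 it was 0.91. Only 12 of 12051 genes had a higher r with Lrrtm2. The tests of these 3 pairs were added after the values were seen, which the adjustment does not cover. In GENCODE the pair shares 95 of the 6022 exonic bases of Lrrtm2, 1.58%. The oligodendrocyte list summed to 993, 740, 992, 962, 1373, 1315 and 1502 FPKM in replicates 1 to 7. It was lowest in replicate 2, as were both genes, but highest in replicate 7, while both genes were highest in replicate 5. The part of this list's cells in the values of Lrrtm2 and Ctnna1 was not tested.

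Ctnna3 was near the lower end of the table at 0.156, 0.172, 0.200, 0.230, 0.396, 0.239 and 0.228 FPKM, from 34 to 86 reads. Like Lrrtm3 it was highest in replicate 5, and the pair had r = 0.94 (exact permutation p = 0.0151, adjusted 0.0226) and rho = 0.61 (exact permutation p = 0.167, adjusted 0.25). Without replicate 5 r was 0.61 (exact permutation p = 0.185), and without the 2 libraries farthest from the median of Lrrtm3 it was 0.15. Ctnna2 ranged from 27.0 to 31.6 FPKM, and its r with Lrrtm1 was 0.19 (exact permutation p = 0.636), with a rho of 0.11 (exact permutation p = 0.840). In GENCODE neither Lrrtm1 nor Lrrtm3 shares an exonic base with the gene around it. Other overlaps touch Lrrtm4, which shares 25.1% of its exonic bases with the antisense gene Gm4409, Nlgn1, which shares 9.16% with the antisense gene A830092H15Rik (median 0.5 FPKM), and Nlgn3, which shares 41.2% with Gm21986 on its own strand.

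**Figure D5:**
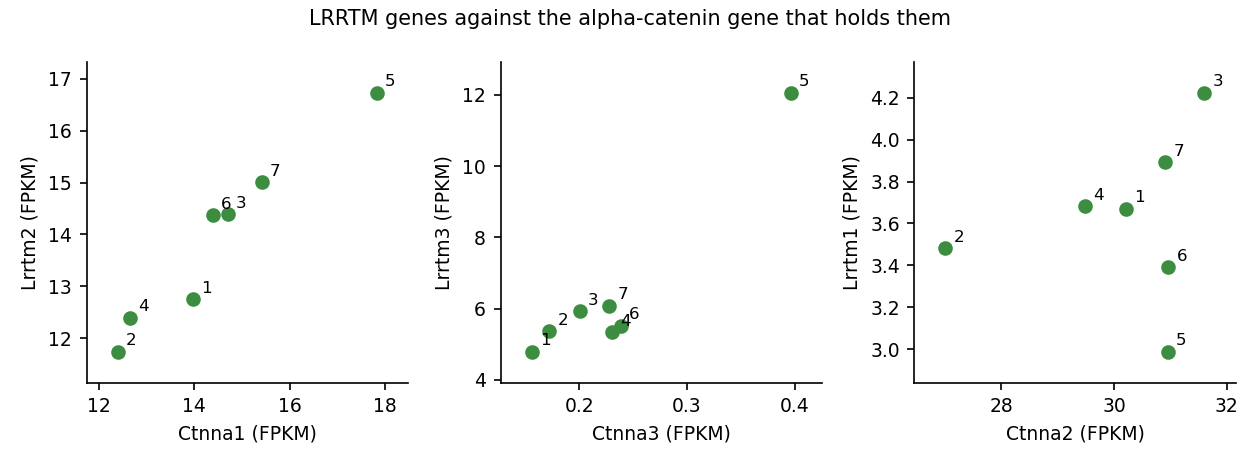
FPKM of Lrrtm2, Lrrtm3 and Lrrtm1 against that of the alpha-catenin gene around each (Ctnna1, Ctnna3, Ctnna2), 1 point per library, labelled by replicate. Lrrtm2 and Ctnna1 rank the 7 libraries alike (rho = 1), while Lrrtm3 and Ctnna3 share mainly a high replicate 5.

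Other genes of the pathway were described by the same counts. The 96 listed partners were all found (Ca10 and Ca11 under the mouse symbols Car10 and Car11), and 88 passed the same minimum. Of these, 38 (43.2%) were lowest in replicate 5, against 26.0% of all genes, 19 (21.6%) were highest there, against 21.1%, and 14 (15.9%) had 1 library apart, against 9.72%. These differences from all genes were not tested. Their median coefficient of variation was 10.7%.

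Of the neurexin ligands other than the members, 10 of 18 were lowest in replicate 5 and 2 highest, against 26.0% and 21.1% of all genes. Sparcl1, the secreted protein hevin that bridges neurexins and neuroligins, was the most abundant at 496 to 600 FPKM. C1ql2, a secreted C1q-like ligand of dentate granule cell synapses, had 17.2 FPKM in replicate 5 and 27.8 to 48.2 elsewhere. Cbln1, a cerebellin that joins neurexins to delta-type glutamate receptors, ranged from 0.903 to 2.51, highest in replicate 6, and the neurexophilin gene Nxph2 had the lowest median of the list (0.340). Among delta receptors and glypicans, 2 of 5 were lowest in replicate 5 and 2 highest. Gpc4, a glypican that binds LRRTM4, had 3.65 FPKM in replicate 5 and 5.48 to 6.61 elsewhere. Gpc1 ranged from 14.9 to 21.7, Gpc3 from 1.603 to 2.37 and Gpc6 from 0.165 to 0.347.

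Of the neuroligin regulators 3 of 7 were lowest in replicate 5 and 2 highest, against 26.0% and 21.1% of all genes. Mdga1, whose protein binds neuroligins and blocks neurexin binding, had 3.69 FPKM there and 6.33 to 8.19 elsewhere. Camk2a, a kinase that phosphorylates neuroligin 1, ranged from 446 to 801, and the protease gene Mmp9, whose product cuts neuroligin 1, from 0.126 to 0.320. Camk2a also stands on the list of hippocampal excitatory neuron markers. Of 19 intracellular partners 7 were lowest in replicate 5 and 4 highest. Dlg4, the scaffold PSD-95 that neuroligins bind, had the highest median of that list and ranged from 81.0 to 105 FPKM, lowest in replicate 6, while Magi1 ranged from 1.98 to 2.35. Shank1 had 13.8 in replicate 5 and 20.7 to 28.7 elsewhere, and Shank2 had 4.25 and 5.50 to 7.47.

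Of the splicing regulators 2 of 7 were lowest in replicate 5 and 2 highest, against 26.0% and 21.1% of all genes. Khdrbs3 was among those lowest there. Its protein, SLM2, controls the splice site 4 insert of neurexins, and it had 51.6 FPKM in replicate 5 and 74.5 to 90.3 elsewhere. Nova1 ranged from 5.01 to 6.96, highest in replicate 5, and Khdrbs2 from 0.197 to 0.297. Of 32 genes from other synaptic adhesion families 14 were lowest in replicate 5 and 7 highest. Cadm3, an immunoglobulin-type adhesion molecule, was the most abundant of them at 76.5 to 98.1 FPKM. Lrfn2, a postsynaptic leucine-rich repeat protein, had 3.64 in replicate 5 and 5.30 to 8.25 elsewhere. Ntng1, a netrin-G strongly expressed in thalamus, had 4.77 and 5.52 FPKM in replicates 3 and 7 and 2.34 to 3.25 elsewhere. The thalamus list summed to 48.3 and 51.1 FPKM in these libraries and to 6.09 to 30.1 elsewhere. The choroid plexus list was also highest in these libraries, at 854 and 1114 FPKM against 25.6 to 251. The part of other tissue in the Ntng1 values was not tested. Il1rapl2 was the lowest of the list at a median of 0.360.

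The genes whose pattern over the 7 libraries was most like that of a member were ranked by Pearson's r on log2(FPKM + 1) among 12052 genes, as a description. Lrrtm1 was most like the kinase gene Aatk (r = 0.99) and Nlgn4l (0.985), another neuroligin gene, which was not among the members and ranged from 6.86 to 9.58 FPKM. Without replicate 5 these were 0.99 and 0.99. Nrxn2 was most like Brsk2, a kinase of neuronal polarity (0.99), and Map6, a microtubule-stabilising protein (0.99), and Nlgn2 most like Mrps18a (0.98) and the axonal motor gene Kif1a (0.98). Nlgn1 was most like Lmo3 (0.99) and Vipr1 (0.97), and Nrxn3 most like Gm2061 (0.98) and Abcg1 (0.96). Lrrtm2 was most like Arhgap18 (0.98) and Gap43, a growth cone protein (0.98), and Lrrtm4 most like Gm12258 (0.97) and Cryl1 (0.97). Nlgn3 was most like Dmxl2 (0.997) and Tnfrsf21 (0.997), and Lrrtm3 most like Stard10 (0.997) and Entpd3 (0.99). Without replicate 5 the coefficients of these 18 genes lay between 0.94 and 0.99. The number of genes with an r over 0.95 was 176 for Nlgn3, 150 for Lrrtm3, 65 for Nrxn2, 43 for Lrrtm2 and 37 for Nlgn2. It was 14 for Lrrtm1, 5 each for Nrxn3 and Lrrtm4 and 2 for Nlgn1.

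Promoter windows of 3 members are shown, since Nlgn2 had the highest level and Lrrtm1 and Lrrtm3 lay at opposite ends in replicate 5. Each is the 250 bases before a transcript start (RefSeq, GRCm38.p6), 5′ to 3′ on the gene's strand: chr11:69837785-69838034 (minus) for Nlgn2, chr6:77242227-77242476 (plus) for Lrrtm1 and chr10:64090256-64090505 (minus) for Lrrtm3. Capitals mark the GC box GGGCGG on either strand.
Nlgn2: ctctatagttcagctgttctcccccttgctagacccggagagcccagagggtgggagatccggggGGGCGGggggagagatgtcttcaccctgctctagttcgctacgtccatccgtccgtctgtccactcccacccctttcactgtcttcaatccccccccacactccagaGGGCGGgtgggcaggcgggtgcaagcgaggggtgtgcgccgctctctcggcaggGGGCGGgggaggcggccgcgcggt
Lrrtm1: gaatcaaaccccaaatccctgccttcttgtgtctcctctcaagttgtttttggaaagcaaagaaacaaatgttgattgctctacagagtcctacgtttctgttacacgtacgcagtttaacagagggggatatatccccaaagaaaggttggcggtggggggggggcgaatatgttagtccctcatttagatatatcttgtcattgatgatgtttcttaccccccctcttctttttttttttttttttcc
Lrrtm3: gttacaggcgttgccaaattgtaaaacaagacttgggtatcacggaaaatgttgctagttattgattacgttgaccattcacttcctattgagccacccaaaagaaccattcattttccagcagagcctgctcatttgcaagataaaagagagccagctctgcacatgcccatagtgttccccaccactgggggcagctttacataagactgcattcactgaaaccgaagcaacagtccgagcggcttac
Nlgn2 holds 3 GC boxes and is 67.6% G and C. Lrrtm1 (42.0%) and Lrrtm3 (46.0%) hold none, and the median of all 32851 promoter windows is 52.4%. The GC box was found in 32.7% of those windows. None of the 3 holds TATAAA (12.4% of all windows), CACGTG (6.02%) or TGACGTCA (1.55%) on either strand. Windows were looked at for 6 of the 9 members. Of those not shown, the windows of Nlgn1, Nrxn3 and Lrrtm4 held no GC box, and a window of Lrrtm4 held 2 matches to TATAAA. These matches describe letters in the windows only.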

How the data were processed

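Library preparation from the hippocampal RNA of 7 samples used a SMARTer kit, according to the protocols in the labels. A single table of FPKM was deposited by the authors; the unit comes from that table's own name. The submitters' processing notes name the build mm10. Aligner, counter, strand setting, annotation and filters: not given in the sources used here. Columns were matched to samples by library name. All samples carry the same labels, so they form 1 group and condition was never inferred.

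The members and lists were chosen with earlier results of these data known. Relative depth came from the steps of low values, whole reads from the common step of a gene, and depth from the most frequent ratio of step to GENCODE M21 transcript length (887 genes). Recovered reads assume that the counts of a gene share no common divisor. Counting errors cover counting only. FPKM removes depth and length but not RNA composition: transcripts encoded in mitochondria took 12.8% to 17.0% of all FPKM and 5.45% to 7.75% of the depth, most in replicate 5.

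Tests used log2(FPKM + 1), exact permutation and Benjamini-Hochberg adjustment at 0.05. The change of low genes is understated on this scale. Genes were kept from a median of 1 FPKM. Named genes followed a rule: all members, the 2 most similar genes of each, in each partner list the highest and lowest median and the 2 widest ranges among kept genes, and the alpha-catenins. The tests of LRRTM genes against alpha-catenins and the use of GENCODE lengths were added after seeing the values, and Gm4409, A830092H15Rik and Gm21986 were named after the overlaps were seen. Alternatives were a pseudocount of 0.1, rescaling to a sum of 1000000, upper-quartile scaling, Spearman's rho, an exact Wilcoxon signed-rank test, other minimum levels and leaving out each library. The scripts were tested on simulated data. Tools were Python 3.11.15 with numpy 2.4.6, pandas 2.3.3 and matplotlib 3.10.9.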

Additional observations from a re-analysis of the deposited data

Results flagged for a closer look

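Values in which 1 of the 7 libraries lies apart, by the share that the gap at the end takes of the whole range, are listed here. Chance gives such a gap in about 1 in 20 groups of normal values, and 9.72% of all genes kept had one. In each case below the library apart was replicate 5, in which the striatal marker list summed to 1725 FPKM, and the part of that tissue in them was not tested.

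The gap share was 0.822 for Lrrtm3 (high) and 0.607 for Nlgn3 (low) among the members, and 0.655 for Ctnna3 (high), the gene around Lrrtm3. Among ratios it was 0.882 for Lrrtm3 to Lrrtm1 and 0.610 for Lrrtm2 to Lrrtm1, both high. Of the shares within a family, it was 0.621 for Nrxn2 and Nrxn3 alike, since the shares of a pair mirror each other, 0.618 for Lrrtm1 (low) and 0.832 for Lrrtm3 (high), and for the LRRTM sum it was 0.651 (high). The last holds for the deposited gene lengths alone: in reads and with the longest GENCODE transcript replicate 3 had the highest sum, with gap shares of 0.145 and 0.371. Among named partners it was 0.620 for Gpc4, 0.586 for Mdga1 and 0.593 for Khdrbs3, all low, and 0.652 for Il1rapl2 (high).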

How the results depend on the processing

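No paired analysis was possible because all libraries carry the same labels and form 1 group. Between 30 and 32 of the 36 member pairs differed in level under each alternative (31 as reported). Of the 8 pairs that neighbour each other in the deposited order 4 passed as reported and 7 with the longest GENCODE transcript as length. Several of these are no longer neighbours then, and of the 8 neighbours in the GENCODE order 4 passed. These lengths also turned Nlgn3 minus Nrxn3 (to -1.22), Lrrtm3 minus Nlgn1 (-0.42), Nlgn1 minus Lrrtm4 (-0.48) and Lrrtm4 minus Lrrtm1 (-1.48), through the lengths alone. That alternative was chosen after seeing the data. The 1 pair that co-varied, Nlgn3 and Lrrtm3, fell to 0 pairs with Spearman's rho, after rescaling and under upper-quartile scaling; the cause was not tested. The count was also 0 whichever library was left out. With 6 libraries the smallest p of the exact permutation test is 0.00139. Over 36 pairs this gives an adjusted p of 0.05 for a single pair, which does not pass. The exact permutation p of Nlgn3 and Lrrtm3 was at that floor without replicate 3 or 7 and 0.00417 without replicate 2, 4 or 6. It was 0.00694 without replicate 1 and 0.0181 without replicate 5. The r of the pair was -0.98 to -0.97 without each library other than replicate 5 and -0.87 without replicate 5. Members with 1 library apart fell from 2 to 1 after rescaling and under upper-quartile scaling, where Nlgn3 no longer had one; the cause was not tested. Rescaling raised the median of all genes by 1.4 to 1.5 on the log2 scale in every library. The share of all genes with 1 library apart was 9.72% to 10.8% over the other minimum levels. Members had 700 to 10532 reads per library, and Ctnna3 rests on 34 to 86 reads.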
